A study of Mus musculus with 6 samples.

Results

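The 10 genes described here encode cytosolic and mitochondrial heat shock proteins and their cofactors: Hspa1b, Hsph1, Bag3, Hspa8, Hsp90aa1, Hsp90ab1, Dnajb1, Hspd1, Hspe1 and Hspb1. They were taken by name, through every probe set annotated to 1 of these symbols. Of the 10 genes, 9 had a probe set (12 probe sets in all, of 12488 on the array), and none was annotated to Hsp90ab1. A total of 8 had a mean level above the floor of 606 scaled units set here for a readable signal, out of 4844 genes kept from 8251 measured, and Hspb1 lay under that floor on every array. Liver RNA was hybridised to 6 one-colour arrays, 1 for each combination of genotype and circadian time, from male mice aged 8 to 10 weeks. The groups were Clock mutant at CT14 and CT02, Cry-deficient at CT14 and CT02, and wild type (C57BL/6 background) at CT14 and CT02, where CT stands for circadian time, the hour of the animal's internal day. CT14 lies early in the internal night, when mice are active, and CT02 early in the internal day. The labels call the Cry-deficient mice of the CT02 array Cry1 and Cry2 double knockouts and those of the CT14 array only Cry deficient. The sources used here do not give the Clock allele, the strain background of the mutants or the number of mice behind an array. With 1 array per group, no difference below has a replicate check or a p-value, and all values describe these arrays. A signal from whole liver cannot tell fewer cells that express a gene from less RNA per cell.

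Heat shock proteins are molecular chaperones, which bind unfolded or newly made proteins and help them to fold. The cytosolic HSP70 proteins work in a cycle with J-domain proteins, which deliver the client, and with nucleotide exchange factors, which release it, and they pass some clients on to HSP90. In mitochondria a chaperonin of HSP60 with its lid HSP10 folds imported proteins. The transcription factor HSF1 drives many of these genes after heat or other protein damage by binding repeats of the letters GAA and TTC, the heat shock element. In mammals, body temperature and feeding, which both follow the daily rhythm, are known to act on heat shock genes of the liver.

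On these arrays Hspa1b, Hsph1, Bag3, Dnajb1 and Hspa8 stood highest in wild-type liver at CT14, most of all Hspa1b. Neither mutant had that high level, whereas the mitochondrial pair Hspd1 and Hspe1 hardly differed between times in wild type on their bright probe sets. The wild-type CT14 array was thus the highest of the 6 for 5 of the 8 genes kept, against 14.4% of all genes kept. The members were chosen with earlier results of these data known, so the shares of all genes set beside them describe and do not test. On the scaled values Hsp90aa1, Hspd1 and Hspe1 were highest on the Clock mutant CT02 array, which was the highest for 25.6% of all genes kept. Before scaling none of these 3 was highest there, and Hspd1 and Hspe1 were lowest there.

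The promoters were searched because HSF1 is known to drive several of these genes. RefSeq promoter sequences (build GRCm38.p6, 250 bases before to 50 after a start site) were held for 7 of the 10 genes, those of Hspa8, Hsp90aa1 and Hsp90ab1 not among them. A pair of heat shock units, written GAANNTTC or TTCNNGAA (each reads the same on both strands), was found in 15.1% of all 32851 promoters listed. Among the members, Hspa1b, Hsph1, Bag3, Hspd1, Hspe1 and Hspb1 held one in a window. A run of 3 alternating units, in which both kinds of pair overlap by a shared unit, was found for Hsph1, Hspd1 and Hspe1 and in 0.603% of all promoters. The E-box CACGTG, the letters that the CLOCK and BMAL1 pair of proteins binds, was found for Hsph1 and Hspd1 and in 7.15% of all promoters. The shares count single promoters, while a gene with 2 windows was counted if either held the motif. Hspd1 held the heat shock pairs only at its second start site and the E-box only at its first. Neither motif was matched in the 2 windows of Dnajb1, which says only that these letters are not in those windows. Shown first are the 250 bases before the start site of Hspa1b, the gene with the largest range over the arrays (chr17:34959239-34959488, minus strand), with the paired units in capitals.
Hspa1b: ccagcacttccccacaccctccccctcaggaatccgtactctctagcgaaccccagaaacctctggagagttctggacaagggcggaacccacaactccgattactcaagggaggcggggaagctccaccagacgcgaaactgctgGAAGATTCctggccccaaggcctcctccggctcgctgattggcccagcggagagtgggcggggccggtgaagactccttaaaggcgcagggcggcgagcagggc

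A further 3 matches are shown as windows of 30 bases, with the paired or overlapping units in capitals, to set genes whose levels differed between arrays beside the mitochondrial pair, whose levels differed less. They lie at chr5:149636287-149636316 (Hsph1, minus strand), chr7:128523603-128523632 (Bag3, plus strand) and chr1:55088053-55088082 (Hspe1, plus strand).
Hsph1: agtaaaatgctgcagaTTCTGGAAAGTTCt
Bag3: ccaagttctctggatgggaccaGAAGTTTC
Hspe1: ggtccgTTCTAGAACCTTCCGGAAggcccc
Hspd1 and Hspe1 lie head to head on chromosome 1, and the window shown lies between the Hspe1 start site and the second Hspd1 start site of the table, so that the same 18 bases in capitals begin at position -89 from the Hspe1 start and, on the other strand, at position -144 from that Hspd1 start. This run of units was the longest found among the 7 genes. The Hsph1 run begins 36 bases after its first listed start site, and the Bag3 match 42 bases after the start site. In Hspa1b the match begins 104 bases before the start site.

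**Figure D1:**
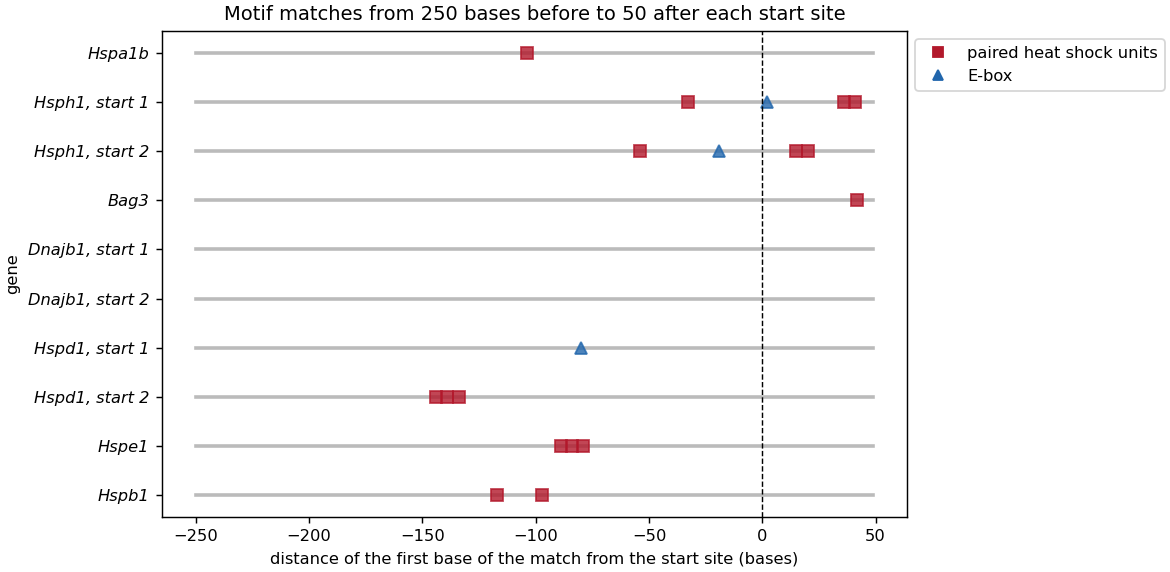
Positions of paired heat shock units (squares) and E-boxes (triangles) in the RefSeq promoter windows of 7 heat shock genes, with the distance from the start site in bases on the horizontal axis and 1 row per listed start site. Overlapping squares mark runs of units, which appear for Hsph1, for the second start site of Hspd1 and for Hspe1, while both rows of Dnajb1 hold no match.

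Hspa1b encodes an inducible HSP70, which is made in large amounts after heat. Its scaled level was 3609 in the Clock mutant at CT14 and 2834 at CT02, 1263 and 2757 in the Cry-deficient mice, and 10370.4 and 2276 in wild type. The wild-type CT14 array stood alone, 2.87-fold above the next highest, which was the Clock mutant at the same time. The lowest of the 6 was the Cry-deficient CT14 array. Over the 6 arrays the level of Hspa1b spanned 8.21-fold, rank 32 of 4844 by range, where the median gene spanned 1.77-fold. The neighbouring gene Hspa1a, whose product is almost the same protein, has a probe set of its own that read 742 and 209 in the Clock mutant, 77 and 443 in the Cry-deficient mice and 808 and 298 in wild type, so that only the CT14 arrays of the Clock mutant and of wild type were above the floor. How far transcripts of Hspa1a bind the Hspa1b probes was not tested.

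Hsph1 encodes HSP110, a nucleotide exchange factor that releases clients from HSP70. Its scaled levels were 6000.4 and 9861 in Clock mutants at CT14 and CT02, 10203 and 6943 in the Cry-deficient mice, and 14330 and 5491 in wild type. Wild type at CT14 was again the highest array, 1.40-fold above the Cry-deficient CT14 array, and wild type at CT02 the lowest. Unlike Hspa1b, Hsph1 was not low on the Cry-deficient CT14 array, which held its second highest level.

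Bag3 encodes a co-chaperone that links HSP70 to small heat shock proteins and to autophagy. Its brighter probe set read 1680.05 and 2049 in the Clock mutant at CT14 and CT02, 1073 and 2218 in the Cry-deficient mice, and 5137 and 3224 in wild type. Both wild-type arrays lay above all 4 mutant arrays on this probe set. Its dimmer probe set read 658 and 1601 in the Clock mutant, 829 and 1204 in the Cry-deficient mice, and 3542 and 1275 in wild type, so it shared the high level of wild type at CT14 but placed wild type at CT02 among the mutants.

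Dnajb1 encodes HSP40, the inducible J-domain partner of cytosolic HSP70. It read 956 and 1058 in the Clock mutant at CT14 and CT02, 634 and 871 in the Cry-deficient mice, and 1396 and 391 in wild type. The gene was dim, wild type at CT02 was under the floor and the Cry-deficient CT14 array just above it, so that ratios against the wild-type CT02 array are lower bounds. Dnajb1 passed the filter on dim genes by its mean over the arrays (884), with wild type at CT14 the highest.

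Hspa8 encodes HSC70, the HSP70 that unstressed cells make all the time, and Hsp90aa1 an inducible form of cytosolic HSP90. The scaled levels of Hspa8 were 15225 and 18014 in Clock mutants at CT14 and CT02, 12463 and 15892 in the Cry-deficient mice, and 20859 and 13729.9 in wild type. Wild type at CT14 was the highest and the Cry-deficient CT14 array the lowest, the same order at both ends as in Hspa1b, within a range of 1.67-fold. Hsp90aa1 read 12673 and 19766 in the Clock mutant, 14665 and 16203 in the Cry-deficient mice, and 16373 and 13130.5 in wild type. Its highest array was the Clock mutant at CT02, and on the values as deposited, before scaling, wild type at CT14 was the highest. A second Hsp90aa1 probe set was under the floor on all 6 arrays.

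Hspd1 encodes the mitochondrial chaperonin HSP60 and Hspe1 its lid HSP10. Hspd1 read 19223 and 26452 in the Clock mutant at CT14 and CT02, 18847 and 23014 in the Cry-deficient mice, and 19636 and 19105 in wild type. Hspe1 read 17256 and 22818 in the Clock mutant, 18746 and 18655 in the Cry-deficient mice, and 17742 and 15826 in wild type. Both probe sets were among the brightest of the array, with means above 99.3% and 98.5% of all probe sets. They spanned 1.40-fold and 1.44-fold, less than the median gene. Of the 485 brightest genes kept, 3 were at least 2-fold higher at CT14 than at CT02 in wild type and 2 at least 2-fold lower. Of all 4844 genes kept, 120 were higher and 101 lower by that measure. The part of brightness in these narrow ranges was not tested. The Clock mutant CT02 array held the highest scaled level of Hspd1 and Hspe1, but the lowest value as deposited, 19631 for Hspd1 and 16934 for Hspe1. The highest deposited values were those of the Cry-deficient CT02 array for Hspd1 (22950) and of the Cry-deficient CT14 array for Hspe1 (21550), which was also highest for Hspe1 with quantile normalization. A dim second probe set of Hspd1 read 681 and 635 in the Clock mutant, 575 and 982 in the Cry-deficient mice, and 1030.45 and 1463 in wild type, in another order than the bright one. Hspb1, which encodes the small heat shock protein HSP27, read between -53.1 and 101 scaled units, under the floor on every array, so no level or ratio of it is given.

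**Figure D2:**
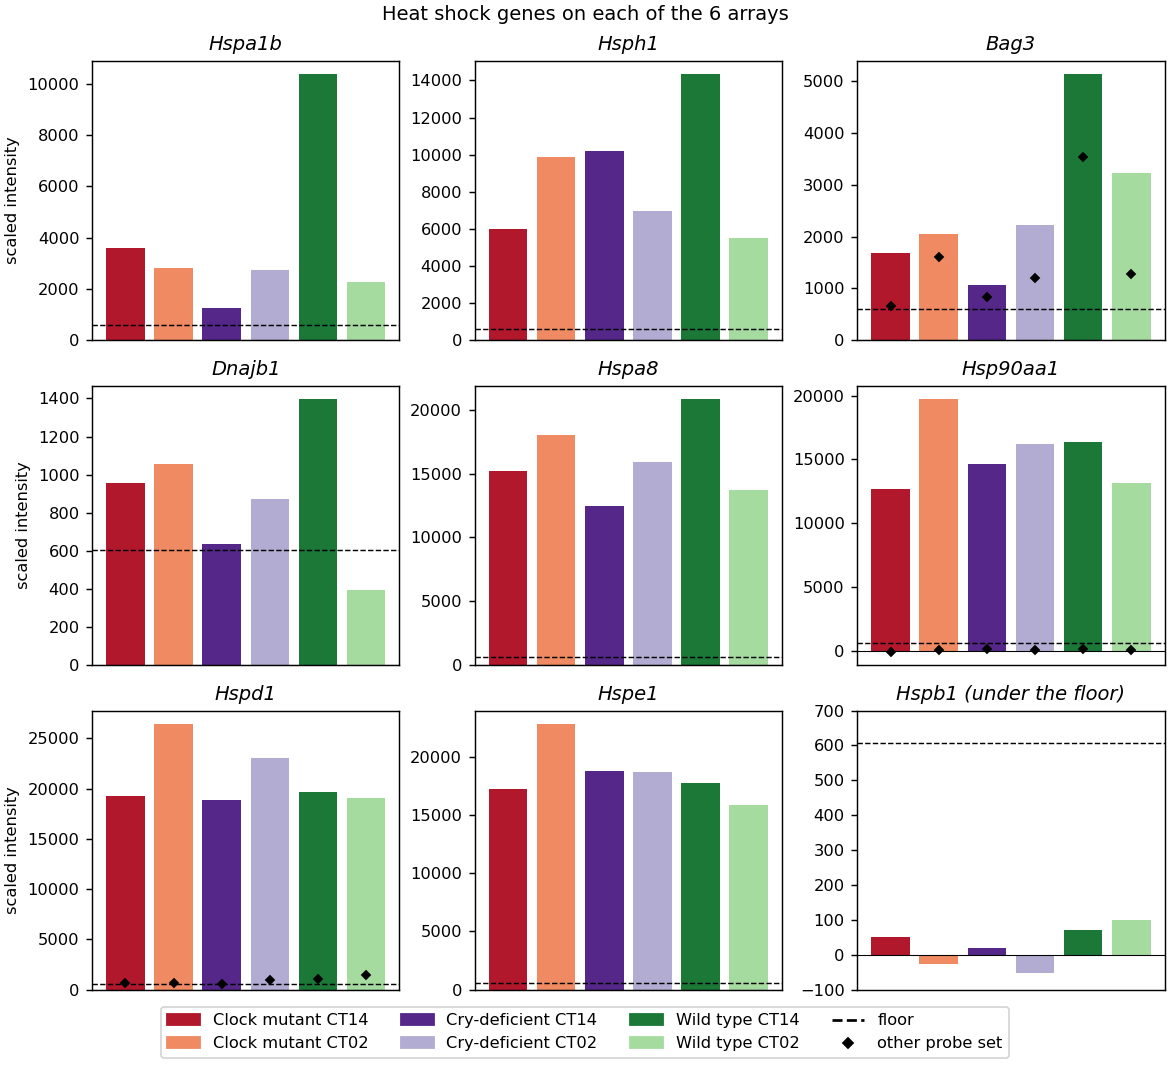
Scaled intensity (vertical axes, linear, each panel with its own range) of 9 heat shock genes on the 6 arrays, 1 bar per array from the brightest probe set, with diamonds for other probe sets and a dashed line at the floor of 606. The wild-type CT14 bar is the tallest for Hspa1b (10370.4), Hsph1, Bag3, Dnajb1 and Hspa8, the Clock mutant CT02 bar is the tallest for Hsp90aa1, Hspd1 and Hspe1 (on the scaled values only), and all bars of Hspb1 lie under the floor.

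Early night was compared with early day in wild type to ask which of the genes follow the time of day. All 8 genes kept were higher at CT14 than at CT02 on their brightest probe sets, while the dim second probe set of Hspd1 was lower (log2 ratio -0.51). Of all 4844 genes kept 2328 were higher, and of the 485 brightest genes kept 225. Hspa1b was 4.56-fold higher, rank 9 of 4844 genes, Hsph1 2.61-fold (rank 51) and Dnajb1 at least 2.30-fold (rank 81). These 3 genes were at least 2-fold higher, as were 2.48% of all genes kept, and none of the 8 was at least 2-fold lower, as were 2.09% of all. The other 5 lay between a log2 ratio of 0.04 (Hspd1) and 0.67 (Bag3, whose dimmer probe set gave 1.47), with Hspa8 at 0.60, Hsp90aa1 at 0.32 and Hspe1 at 0.16. The median log2 ratio over the members was 0.64, beside 0.00 over all genes kept. The log2 ratios ran from 0.67 to 2.19 for the 4 cytosolic genes Hspa1b, Hsph1, Bag3 and Dnajb1, and stood at 0.04 and 0.16 for the mitochondrial pair. Hsp90aa1, which is inducible too, stood at 0.32, below the 0.60 of Hspa8. Whether the ratios go with inducibility was not tested. The 3' to 5' ratio of the Actb control probes, a sign of RNA length, was 0.93 at CT14 and 0.84 at CT02 in wild type.

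Within the Clock mutant the same contrast gave another order of levels. Of the 8 genes 7 were lower at CT14 than at CT02, none of them 2-fold (3.43% of all genes kept were), and Hspa1b was higher with a log2 ratio of 0.35, also under 2-fold (4.31% of all). The lowest values were those of Hsph1 (-0.72), Hsp90aa1 (-0.64), Hspd1 (-0.46) and Hspe1 (-0.40), and the median was -0.34. The dimmer probe set of Bag3 gave -1.28, against -0.29 on the brighter one, and the dimmer one of Hspd1 gave 0.10. The CT02 array of this pair was the dimmest of the study, and it was brought up most by the scaling (log2 offset -0.43). On the values as deposited 6 of the 8 were higher at CT14 and only Hsph1 and Hsp90aa1 lower, with a median of 0.15, where that of all genes was 0.45. Hspa8 was slightly higher at CT14 (0.04 and 0.02) with quantile normalization and with a lowess correction too. The 485 brightest genes kept had a median of -0.29 in this contrast, and 409 of them were lower at CT14, as were 2351 of all 4844 genes kept. Of 8 hepatocyte markers 7 were lower, with a median of -0.43. The Actb 3' to 5' ratio was 1.15 at CT14 and 2.68 at CT02, while that of Gapdh was 0.59 at CT14 and 0.56 at CT02. What part brightness, cell markers and RNA length had in the ratios of the members was not tested.

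On the Cry-deficient arrays 6 of the 8 genes were lower at CT14 than at CT02. So were 2378 of all 4844 genes kept, 380 of the 485 brightest (median -0.16) and 7 of 8 hepatocyte markers (median -0.16). Those markers did not move together: Hnf4a was higher at CT14 (log2 ratio 2.25) and Apoa1 lower (-1.81, with its CT14 array under the floor). Hspa1b was 2.18-fold lower (rank 67 from the lowest) and Bag3 2.07-fold lower, and 2.02% of all genes kept were at least 2-fold lower. Before scaling these ratios were -0.92 and -0.84 on the log2 scale, under 2-fold. Bag3 on its dimmer probe set gave -0.54, and the dimmer one of Hspd1 -0.70, where one array was at the floor. Dnajb1 stood at -0.46, Hspa8 at -0.35, Hspd1 at -0.29 and Hsp90aa1 at -0.14 (0.06 on the values as deposited). Hsph1 went the other way, 1.47-fold higher at CT14, and Hspe1 was level (log2 ratio 0.01). No member was at least 2-fold higher, as were 3.53% of all genes kept. The Gapdh 3' to 5' ratio was 0.70 at CT14 and 2.37 at CT02 on these arrays, and that of Actb 0.86 at CT14 and 1.70 at CT02. Of 11 macrophage markers 9 were lower at CT14 too, with a median of -0.66, and Marco, Cd5l and Tyrobp were at least 2-fold lower while C1qa was at least 2-fold higher. The part of these values in the ratios was not tested.

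**Figure D3:**
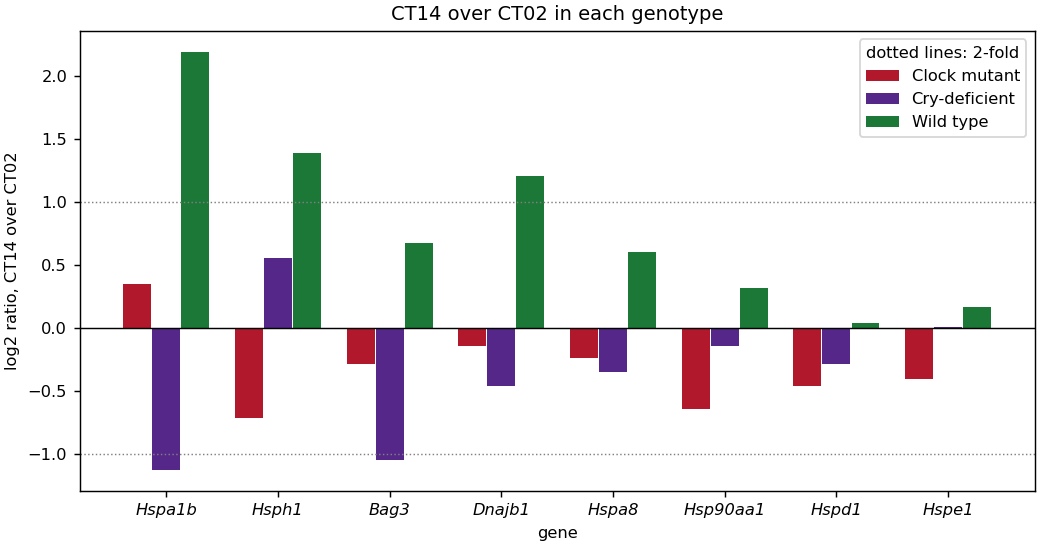
Log2 ratio of CT14 over CT02 (vertical axis) for the 8 heat shock genes kept, with 1 bar per genotype and dotted lines at 2-fold. All wild-type bars are above 0, led by Hspa1b at 2.19, while 7 of the 8 Clock mutant bars and 6 of the 8 Cry-deficient bars are below it. On the values as deposited 6 of the 8 Clock mutant ratios and 3 of the 8 Cry-deficient ratios were above 0.

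The time ratio of wild type was then subtracted from that of each mutant. The difference of the Clock mutant from wild type was negative for all 8 genes on their brightest probe sets, with a median of -0.96 on the log2 scale beside -0.01 over all genes kept. On the values as deposited all 8 were negative too, with a median of -0.49. The lowest scaled differences were those of Hsph1 (-2.10, rank 34 from the lowest of 4844) and Hspa1b (-1.84, rank 60). For the Cry-deficient mice the difference was negative for all 8 as well, with a median of -0.89 beside 0.00 over all genes, and lowest for Hspa1b (-3.31, rank 5) and Bag3 (-1.72, rank 60). Dnajb1 had differences of -1.35 and -1.66, each at most that value because wild type at CT02 was under the floor. Hspd1 (-0.50 and -0.33) and Hspe1 (-0.57 and -0.16) differed least, and for the Clock mutant the dim probe set of Hspd1 ran the other way (0.10 in the mutant, -0.51 in wild type). The Cry-deficient value of Hspe1 turned to 0.02 on the values as deposited and 0.03 with quantile normalization. The same wild-type pair enters both sets of differences, so the second set is not independent of the first.

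Each mutant was compared with wild type at CT14, where the wild-type levels were high. For Hspa1b, Hsph1, Bag3, Dnajb1 and Hspa8, which were highest on that array, a ratio below 0 in both mutants follows from that rank. So does their higher level at CT14 than at CT02 in wild type. The same array enters the wild-type time ratios and the differences from them, so these results are not independent. In the Clock mutant all 8 genes gave negative log2 ratios against wild type, as did 2445 of all 4844 genes kept and 296 of the 485 brightest. Bag3 was 3.06-fold lower (5.39-fold on its dimmer probe set), Hspa1b 2.87-fold and Hsph1 2.39-fold. These 3 were at least 2-fold lower, as were 5.64% of all genes kept, and none was at least 2-fold higher (4.13% of all). Dnajb1 (log2 ratio -0.55), Hspa8 (-0.45) and Hsp90aa1 (-0.37) were lower by less, and Hspd1 (-0.03) and Hspe1 (-0.04) were level, both slightly above 0 with quantile normalization or a lowess correction. The dim probe set of Hspd1 gave -0.60. The median of the members was -0.50, beside -0.01 over all genes.

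In the Cry-deficient mice at CT14, Hspa1b was 8.21-fold lower than in wild type, which placed it second from the lowest of 4844 genes. Bag3 was 4.79-fold lower (4.27-fold on its dimmer probe set, rank 7 from the lowest on the brighter one) and Dnajb1 2.20-fold lower. These 3 stand beside 2.27% of all genes that were at least 2-fold lower. None of the 8 was at least 2-fold higher, as were 2.46% of all. Hspa8 was 1.67-fold lower and Hsph1 1.40-fold lower. Hsp90aa1 (log2 ratio -0.16), Hspd1 (-0.06) and Hspe1 (0.08) were nearly level (the dim probe set of Hspd1 gave -0.77, with one array at the floor), and the median of the members was -0.62. Both mutants were set against the same wild-type CT14 array, so both sets of ratios carry any error of that array. That array differed from the others on the endothelial markers, whose summed level over 6 genes was 7790 there and between 10537 and 15704 on the other 5 arrays. Of these 6 genes Pecam1 was under the floor on every array, and their part in the ratios was not tested.

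At CT02 each mutant was set against wild type in the same way. In the Clock mutant 7 of the 8 genes were above wild type on their brightest probe sets, among them Hspa1b (0.32), Hsph1 (0.84) and Dnajb1 (at least 0.80), and Bag3 was below it (-0.65). The dim probe set of Hspd1 went the other way, 2.31-fold lower (635 against 1463), where the bright one gave 0.47. Of the 7 genes measured above the floor on both arrays none was 2-fold higher or lower, as were 4.25% and 7.51% of all genes kept. Whether Dnajb1 reached 2-fold depends on the floor, since it gave 1.44 with the floor at the 25th percentile. Of all 4844 genes kept 2390 were above wild type, and of the 485 brightest 386. The median of the members, 0.50, stood beside one of 0.24 for the 485 brightest genes. Before scaling it was -0.06, where all genes had a median of -0.52, and Hspa1b, Hspa8, Hspd1 and Hspe1 were below wild type. In the Cry-deficient mice 7 of 8 genes were above wild type as well, from 0.21 for Hspa8 to at least 0.52 for Dnajb1, with Bag3 at -0.54 and the dim probe set of Hspd1 at -0.58. There 2421 of all 4844 genes kept were above wild type, and 357 of the 485 brightest. None of the 7 genes other than Dnajb1 was 2-fold apart, beside 2.73% of all genes higher and 3.96% lower. With the lower floor Dnajb1 gave 1.16. The brighter Bag3 probe set was thus below wild type in both mutants at both times, while its dimmer probe set at CT02 gave 0.33 in the Clock mutant and -0.08 in the Cry-deficient mice.

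**Figure D4:**
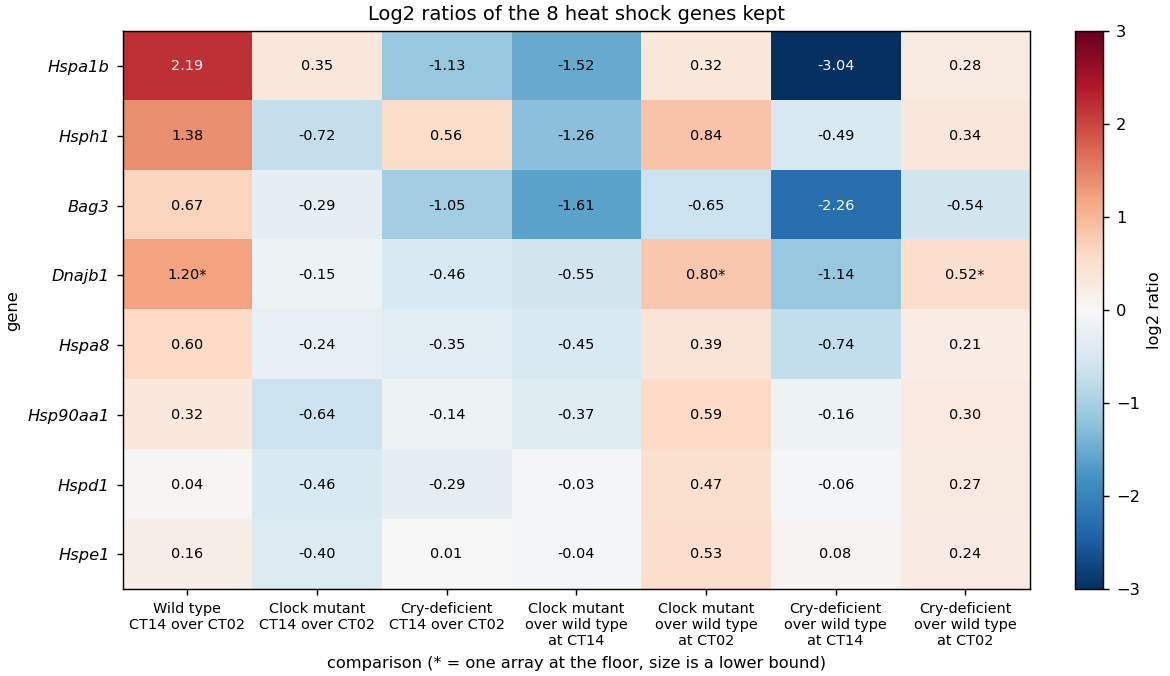
Log2 ratios (colour and printed value) of the brightest probe sets of the 8 heat shock genes kept (rows) in the 7 comparisons (columns), where an asterisk marks a lower bound. The largest values stand in the rows of Hspa1b and Bag3, and the rows of Hspd1 and Hspe1 stay between -0.46 and 0.53 in every column.

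Other chaperone genes were read from lists of the same pathways. Beside the counts below, 2328 of all 4844 genes kept were higher at CT14 in wild type, and 2351 were lower at CT14 within the Clock mutant. Against wild type at CT14, 2445 were lower in the Clock mutant and 2475 on the Cry-deficient array. Among the cytosolic J-domain proteins, which deliver clients to HSP70, 7 of 9 genes kept were higher at CT14 than at CT02 in wild type and none was 2-fold apart, with a median of 0.50. Dnaja1, a J-domain partner of HSC70, read 11774 and 14656 in the Clock mutant at CT14 and CT02, 11816 and 12965 in the Cry-deficient mice, and 17998 and 11191 in wild type. In the Clock mutant at CT14, 7 of these 9 genes were lower than in wild type (median -0.54), and Dnajb2 was 2.02-fold lower. Against wild type at CT02 the Clock mutant was 3.32-fold lower for Dnajc7 and 2.25-fold higher for Dnajc5. Within the Clock mutant Dnajc7 was 2.24-fold higher at CT14, and on the Cry-deficient arrays Dnajc5 was at least 2.02-fold higher at CT14.

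The HSP90 co-chaperones, which load and steer HSP90, were higher at CT14 in wild type for 9 of 9 genes kept, with a median of 0.49. Stip1, the adaptor that hands clients from HSP70 to HSP90, read 2608 and 4271 in the Clock mutant, 4847 and 3547 in the Cry-deficient mice, and 5573 and 3057 in wild type, and was 2.14-fold lower in the Clock mutant than in wild type at CT14. Chordc1 and Fkbp4 had log2 ratios of 0.58 and 0.41 for CT14 over CT02 in wild type. The largest value of this list belonged to Fkbp5, known as a glucocorticoid-induced gene, at least 7.95-fold higher at CT14 in wild type and at least 4.35-fold in the Clock mutant. On the Cry-deficient arrays Fkbp5 was 3.39-fold lower than in wild type at CT14 and at least 3.07-fold higher at CT02. In the Clock mutant at CT14, 7 of the 9 were lower than in wild type (median -0.55), and on the Cry-deficient arrays 7 of 9 were as well (median -0.17). Ppp5c was at least 2.50-fold higher at CT14 than at CT02 on the Cry-deficient arrays, and Fkbp8 was 2.01-fold lower there than in wild type at CT02.

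The other HSP70 family genes and cofactors did not share one direction. In wild type 5 of 9 genes kept were higher at CT14 and 4 were lower, none 2-fold, with a median of 0.10. Bag1, which like Bag3 acts as a nucleotide exchange factor, was lower in the Clock mutant than in wild type at CT14, just past 2-fold, and 2.37-fold lower at CT02. Stub1, an ubiquitin ligase that tags chaperone clients, was 2.73-fold higher at CT14 than at CT02 in the Clock mutant and 2.65-fold lower than wild type at CT02. Hspbp1, an HSP70 exchange factor read by a probe set that may also bind related sequences, was 2.35-fold higher in the Clock mutant and 2.61-fold lower on the Cry-deficient arrays than in wild type at CT02, and 2.15-fold higher at CT14 than at CT02 on the Cry-deficient arrays. Bag2 was at least 2.22-fold lower on the Cry-deficient array than in wild type at CT02, while its plain probe set gave a log2 ratio of 0.53 the other way.

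The genes of the cytosolic chaperonin, which folds actin and tubulin, and of prefoldin had a median of 0.21 in the wild-type time contrast. Of these 12 genes 10 were above 0 and none was 2-fold apart. Among them Pfdn5 was at least 2.67-fold higher in the Clock mutant than in wild type at CT02. Of the other mitochondrial chaperones and proteases 7 of 9 were higher at CT14 in wild type, none 2-fold, with a median of 0.10, close to the 0.04 and 0.16 of Hspd1 and Hspe1. Hspa9, the mitochondrial HSP70, read 20374 and 19638 in the Clock mutant, 19987 and 21353 in the Cry-deficient mice, and 20364 and 17773 in wild type. Grpel2, an exchange factor of that protein, was higher in the Clock mutant than in wild type by 2.14-fold at CT14 and 2.74-fold at CT02. The 3 other small heat shock genes kept had log2 ratios from -0.08 to 0.28 in wild type, and Hspb2 was 2.20-fold higher at CT14 in the Clock mutant on a probe set whose partner was under the floor. Of the heat shock factors Hsf2 and Hsf4 were measured and lay under the floor on all 6 arrays.

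The endoplasmic reticulum chaperones, a separate system that answers to unfolded proteins in the secretory pathway, had a median of 0.82 in the wild-type time contrast, with 12 of 13 genes higher and 3 at least 2-fold, beside 2.48% of all genes kept: Creld2 (4.48-fold), Dnajb11 (2.36-fold) and Dnajb9 (2.14-fold). Within the Clock mutant 10 of the 13 were lower at CT14, and Manf (2.51-fold), Creld2 (2.33-fold) and Dnajb11 (2.18-fold) were at least 2-fold lower, beside 3.43% of all genes. In the Clock mutant at CT14, 12 of 13 were lower than in wild type (median -0.84), 6 of them at least 2-fold, beside 5.64% of all genes kept, and the largest differences were those of Creld2 (6.53-fold), Manf (3.30-fold) and Pdia3 (2.80-fold). Pdia3 was 2.57-fold lower there at CT02 as well, whereas Dnajb11 was 2.01-fold higher at CT02. On the Cry-deficient arrays at CT14 the median was -0.38, where that of the cytosolic and mitochondrial members was -0.62, and Dnajb9 was 2.30-fold lower. The difference between these lists was not tested. Cirbp, the cold-inducible RNA-binding protein gene, read 5505 and 4794 in the Clock mutant at CT14 and CT02, 3376 and 2938 in the Cry-deficient mice, and 2577 and 4609 in wild type. Wild type at CT14 was thus its lowest array, where Hspa1b was highest, and the Clock mutant was 2.14-fold above wild type at CT14. Hmox1, a heme-degrading enzyme gene of oxidative stress, was nearly level over the arrays (5206 to 6278). Of the other stress-response genes listed, Sqstm1 had a log2 ratio of -0.27 and Atf3 of 0.31 for CT14 over CT02 in wild type. Gadd45a, whose mean was under the floor, read 1017 in wild type at CT14 and -43 at CT02, and 792 on the Cry-deficient CT14 array.

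**Figure D5:**
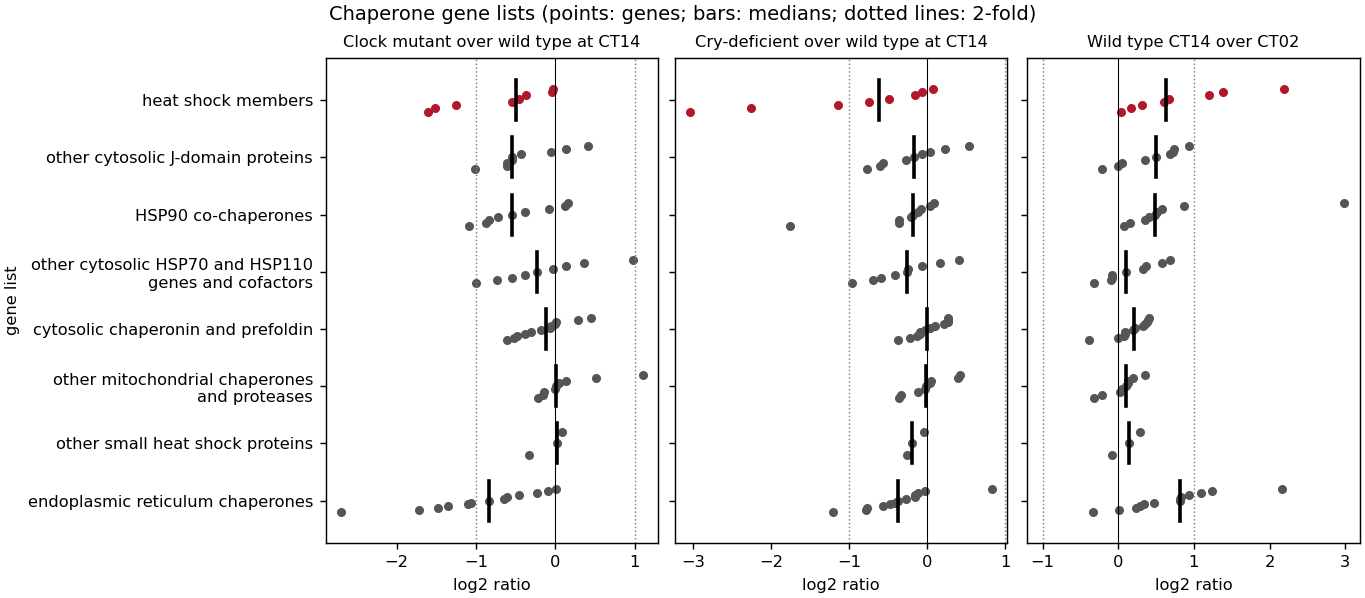
Log2 ratios (horizontal axes) of the heat shock members (top row) and of 7 other chaperone gene lists in 3 comparisons, with 1 point per gene kept, bars at the medians and dotted lines at 2-fold. In wild type CT14 over CT02 the points of the members reach 2.19, and in the Cry-deficient comparison at CT14 they reach -3.04, beyond every gene of the other lists in that panel.

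The genes whose pattern was most like that of the members were sought among 3891 other genes above the floor on all 6 arrays, by the root mean square difference of centred log2 levels over the 6 arrays. To the mean pattern of the 8 members the closest was Dnaja1 (0.11), followed by Trbv1 (0.11), Ankrd13a (0.12), Ficd, whose product modifies the endoplasmic reticulum chaperone BiP (0.12), and Kctd10 (0.13). Among the members themselves Hspa8 (0.09) and Dnajb1 (0.17) were closest to their mean and Hspa1b (0.64) farthest. To the pattern of Hspa1b alone the closest was G0s2, an inhibitor of triglyceride breakdown (0.37), which read 6172 and 2291 in the Clock mutant at CT14 and CT02, 1644 and 4136 in the Cry-deficient mice, and 11713 and 3809 in wild type. Fhl1 (0.58), Gtf2f1 (0.58), Pla2g12a (0.58) and Mid1ip1, which promotes fatty acid synthesis (0.59), followed at a distance similar to that of the members Bag3 (0.53) and Dnajb1 (0.58).

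The arrays differed in the mean deposited intensity, from 1637 in the Clock mutant at CT02 to 2486 in the Cry-deficient mice at CT14, and between 21.5% and 24.0% of the values of an array lay at or below 0. All 8 hepatocyte markers measured were kept, with summed levels between 80429 and 112877, as was every one of 11 macrophage markers (29443 to 53318, highest on the Cry-deficient CT02 array). The 3 cholangiocyte markers were under the floor on all arrays, as were 3 of 6 lymphocyte and 4 of 5 neutrophil markers. The stellate cell markers summed to between 21961 and 34048. Between the wild-type arrays the hepatocyte sum was 94460 at CT14 and 96158 at CT02. The part of these cell types in the levels of the heat shock genes was not tested.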

How the data were processed

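The value table that the authors deposited holds a linear intensity for each probe set, some of them below 0. The sources used here give neither the software, any background or mismatch subtraction nor the genome build. Groups come from the sample titles. The arrays were brought to one scale by a size factor each, the median of ratios to the geometric mean profile, taken on 6065 brighter probe sets. Any scaled value under 606, the pooled median, was raised to that floor before log2, so a fold against the floor is a lower bound. Probe sets with 1 gene symbol in the platform's annotation were used (10833, with 396 of several and 1237 of no symbol left out), of which 10817 matched RefSeq (GRCm38.p6) by gene number with 0 symbols changed. The brightest probe set stood for its gene, and genes with a mean of at least the floor were kept. Each level is that of a probe set, so levels were not compared between genes. In all, 7 comparisons were made, described by log2 ratios and counts past 2-fold, with no test, and precision is limited by having 1 array per group. The procedure was tested on simulated data with no negative values and a constant size factor per array. That test therefore does not cover the negative values of these arrays or a shift that depends on brightness. The members, the other gene lists and the rules were chosen with earlier results of these data known. All 10 genes were named, with up to 3 genes per list and comparison at least 2-fold apart (the largest), and the 5 genes closest in pattern. Chordc1, Fkbp4, Hspa9, Hspa1a, Hsf2, Hsf4, Hmox1, Sqstm1, Atf3, Gadd45a, Hnf4a and Apoa1 were chosen after their values were seen. Alternatives were other scalings, floors, filters, probe sets and thresholds. Python 3.11.15 with pandas 2.3.3 and numpy 2.4.6 was used.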

Additional observations from a re-analysis of the deposited data

Results flagged for a closer look

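The time effect of 4 genes ran in opposite directions in wild type and in a mutant, with at least a 2-fold difference between the log2 ratios. Each direction rests on 1 pair of arrays, and the differences were not tested. The share of all genes kept that meets the same rule is not given here, so whether 4 genes are many cannot be told. A ratio near 0, such as the -0.15 of Dnajb1 in the Clock mutant, also counts as a direction under this rule. For the Cry-deficient mice minus wild type the difference was -3.31 for Hspa1b (-1.13 and 2.19), -1.72 for Bag3 (-1.05 and 0.67) and -1.66 for Dnajb1 (-0.46 and 1.20). For the Clock mutant minus wild type it was -2.10 for Hsph1 (-0.72 and 1.38) and -1.35 for Dnajb1 (-0.15 and 1.20). Dnajb1 was under the floor in wild type at CT02, so its differences are bounds. On the values as deposited Dnajb1 had a log2 time ratio of 0.35 in the Clock mutant, above 0 as in wild type.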

How the results depend on the processing

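No paired analysis was possible because each group holds 1 array. Under 10 alternatives fixed at the start and 2 added after the data were seen, 73 of 81 counts stayed within 1.5 times. Some of these settings could not move the members. Dropping the filter on dim genes, or using only probe sets with no letter code, leaves every member value as it was. The lower floor can change only Dnajb1. Agreement under these settings was fixed in advance and is part of the counts of unchanged values given here. On the values as deposited no member was 2-fold apart between times on the Cry-deficient arrays (0), and 1 was between the Clock mutant and wild type at CT02 (Bag3, -1.21). With the floor at the 25th percentile Dnajb1 alone passed 2-fold in each mutant against wild type at CT02 (1 and 1). With the mean over all probe sets 1 member passed in the Cry-deficient time contrast. At 3-fold 1 member passed in the wild-type time contrast, 0 in the Cry-deficient one and 1 for the Clock mutant against wild type at CT14. The cause was not tested beyond what each setting changes. The median over the members ranged from 0.60 to 0.78 in the wild-type time contrast, from -0.58 to -0.45 for the Clock mutant and from -0.66 to -0.49 for the Cry-deficient mice against wild type at CT14. Its sign turned on the values as deposited in the Clock mutant time contrast (0.15) and for the Clock mutant against wild type at CT02 (-0.06). There, 711 genes were 2-fold apart in the Clock mutant time contrast (93.1% higher) against 375 (55.7%), and 1032 (5.62% higher) against 570 (36.1%) for Clock mutant against wild type at CT02. The higher share was 81.9% against 63.6% in the Cry-deficient time contrast and 28.6% against 40.7% for these mice over wild type at CT02. The 25th percentile floor gave 579 genes in the Clock mutant time contrast. Of 504 single-gene values 3 moved by over 1.5-fold, all of Dnajb1 with the lower floor, and 0 values past 2-fold changed sign. No member's ratio turned sign in the wild-type time contrast or for the Cry-deficient mice against wild type under 9 of these alternatives. With the Clock mutant CT02 array left out the wild-type CT14 array was the highest for 6 of the 8 genes and 17.6% of all genes, and with the Cry-deficient CT02 array left out for 5 and 17.5%. Leaving out an array can only keep or raise these counts.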
